A study of Mus musculus with 6 samples.

Results

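Organoids of mouse esophageal epithelium held a set of basal-type cells with high levels of Igfbp2, Adh7, Mt3, Ces1h, Gpnmb and Aldh3a1, and 1950 of 26808 cell barcodes were assigned to it. The cells were chosen by a score made from those 6 genes, so the score genes describe the set and carry no test. Barcodes with at least 500 detected genes and a deposited Krt13 value below 3 were pooled over all libraries, cells with 2 or more of the mitotic genes Top2a, Mki67, Birc5 and Ube2c were dropped, and the cells at or above the 85th percentile of the mean value of the 6 genes were taken as members. This left 12990 eligible cells, of which 1950 (15.0%) were members and 11040 were not.

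The libraries came from esophageal basal cells of C57BL6 mice that were sorted on Integrin-b1, a surface adhesion receptor, and on the absence of DAPI, a stain of dead cells. The founders were split into Cyto-ID Low and Cyto-ID High by a dye that labels autophagic vesicles, and both groups were then grown in Matrigel for 15 days in the same medium, which contained EGF, Noggin and R-Spondin, the antioxidant N-acetyl-L-cysteine and the kinase inhibitor Y27632. Each group had 3 libraries with the labels F2, M3 and F6, and values below follow that order. The age label gives the culture time, the age of the mice is not given in the sources used here, and the labels do not say whether a replicate was 1 animal or a pool. P-values therefore measure the spread between these libraries, which may be technical.

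Detoxifying enzymes act in steps. Alcohol and aldehyde dehydrogenases, carbonyl reductases and esterases change reactive groups, glutathione S-transferases and glucuronosyltransferases attach a soluble group, and ABC transporters export the product. Many of these genes, with those for glutathione synthesis, respond to the transcription factor NRF2 (Nfe2l2), while metallothioneins bind zinc and copper and respond to the metal sensor MTF1. The esophageal lining is exposed to swallowed ethanol and aldehydes, and Adh7 is the class IV alcohol dehydrogenase known from upper digestive epithelium.

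The number of UMIs (unique molecular identifiers, 1 per captured RNA molecule) per library ranged from 8457489 to 48957523, and the median per barcode from 1778.5 (Cyto-ID High F6) to 9928 (Cyto-ID High F2). Members held 9582928 UMIs in all. Cyto-ID High M3 and the 2 F6 libraries were the shallow ones, with median depths of 2236, 2643 and 1778.5 UMIs. Of all barcodes, 170 had a sequence that also occurred in another library, and 8 of these were members.

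Members were found in every library and were more frequent in Cyto-ID High. They made up 4.09% (95% Wilson interval 3.27 to 5.10), 8.12% (7.13 to 9.23) and 7.01% (5.80 to 8.46) of eligible cells in the Cyto-ID Low libraries. In the Cyto-ID High libraries they made up 20.7% (19.1 to 22.3), 27.9% (26.0 to 29.99) and 18.8% (17.4 to 20.3). The intervals cover counting error only. The group means were 6.41% ± 2.08 and 22.5% ± 4.83 (SD, n = 3), and the groups did not overlap. No test was made, because membership is set by the marker values themselves. With Mt3 and Ces1h taken out of the score, the means were 7.97% ± 2.96 and 21.3% ± 6.55 (SD, n = 3).

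The members were not equally well marked. The score cut lay at 0.323, and the lowest member (0.3228) and the highest other cell (0.3225) were almost equal, with 437 members and 600 other eligible cells within 0.05 of it. In a cell of at most 1684 UMIs a single UMI of 1 marker reaches the cut, and 342 members (17.5%) rested on 1 such UMI. In all, 692 members (35.5%) carried only 1 of the 6 markers and 626 (32.1%) carried 3 or more. Cyto-ID High F2, the deepest library, had 3 or more markers in 387 of its 516 members (75.0%). Cyto-ID Low F6 had them in 0 of 100, which by counting error alone allows up to 3 in 100 cells with UMIs of that many markers and sets no limit on expression, and 89 of its members carried 1 marker. Depth differed as well, and the median member held 10222 UMIs in Cyto-ID High F2 and 2220 in Cyto-ID Low F6. Cyto-ID High F6 was shallower still, at 1744.5 UMIs, and had 3 or more markers in 75 of 518 members (14.5%). Median members of Cyto-ID Low M3 and Cyto-ID High M3 held 4833 and 1791 UMIs, with 3 or more markers in 9.95% and 22.0% of members. The part of depth in the number of markers was not tested. In Cyto-ID Low F6 the data go against a name taken from Igfbp2 and Adh7.

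**Figure D1:**
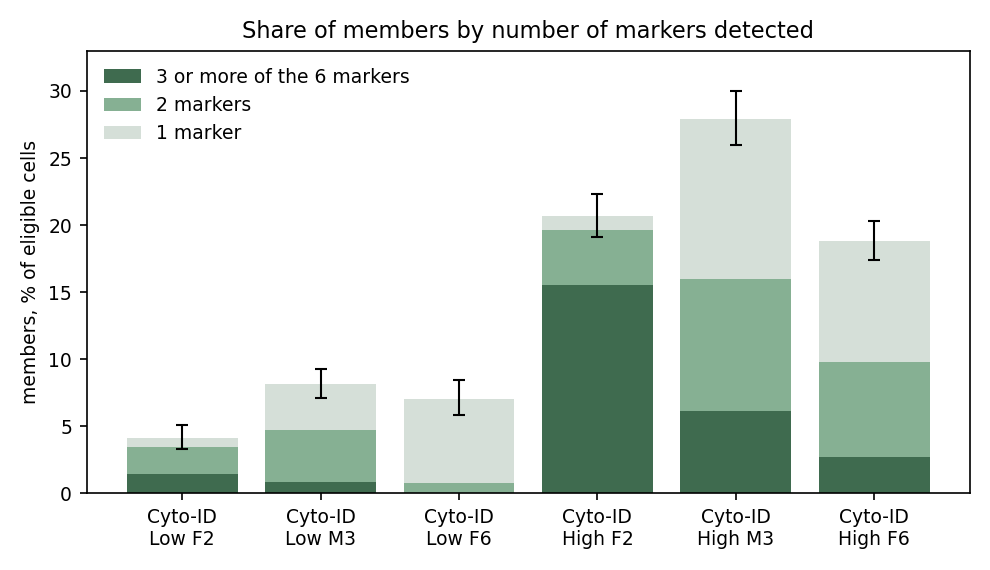
Members as a percentage of eligible cells in each of the 6 libraries, with bars split by how many of the 6 markers a member carried and error bars for the 95% Wilson interval of the whole bar. The 3 Cyto-ID High bars stand between 18.8% and 27.9%, above the Cyto-ID Low bars of 4.09% to 8.12%, and Cyto-ID Low F6 has 0 members with 3 or more markers.

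The libraries also differed in which marker chose their members. Gpnmb, a glycoprotein of lysosomes and melanosomes, was the highest of the 6 in 33.8%, 60.7% and 89.0% of Cyto-ID Low members and in 11.2%, 31.5% and 17.6% of Cyto-ID High members. Igfbp2, a secreted binding protein of insulin-like growth factors, led in 35.1%, 18.5% and 9% of Cyto-ID Low members and in 41.1%, 25.0% and 39.2% of Cyto-ID High members. A score without Gpnmb, chosen after the data were seen, gave shares of 4.07% ± 1.58 and 24.0% ± 2.57 (SD, n = 3), and left 35 members in Cyto-ID Low F6.

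Depth was compared at a fixed 1000 UMIs per cell, which left out 232 eligible cells (8, 24 and 35 from Cyto-ID Low, then 8, 83 and 74 from the Cyto-ID High libraries). Any marker UMI was then present in 8.58% ± 3.04 of eligible cells in Cyto-ID Low against 20.5% ± 5.23 in Cyto-ID High (SD, n = 3). At full depth these shares were 23.5% ± 7.91 and 36.9% ± 7.56 (SD, n = 3). The 85th percentile of the score was 0 at that depth, so members could not be chosen again. Among the 9952 cells with a Krt13 value of 3 or more, a more differentiated group that is not known to lack these genes, 7.64% carried a marker UMI after thinning, against 14.9% of eligible cells. Free RNA in the droplets was not measured.

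The levels of the 6 markers within members show the same unevenness. Igfbp2 was at 192, 92.0 and 78.3 CPM (UMI counts scaled to the same total in every cell and averaged over the members of a library) in Cyto-ID Low and at 379, 285 and 366 CPM in Cyto-ID High. Adh7 was at 137, 98.3 and 5.55 CPM against 214, 259 and 83.2 CPM. The metallothionein Mt3 was at 27.7, 7.56 and 0 CPM against 155, 118 and 241 CPM. For Igfbp2 and Mt3 every Cyto-ID High library lay above every Cyto-ID Low library, while for Adh7 the ranges overlapped. These genes chose the members, and the leading marker differed between libraries, so this is a description and was not tested.

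Ces1h, a carboxylesterase, was at 132, 40.03 and 3.38 CPM in Cyto-ID Low members and at 175, 182 and 224 CPM in Cyto-ID High members. Aldh3a1, an aldehyde dehydrogenase that oxidises aromatic and lipid-derived aldehydes, was at 81.0, 22.0 and 13.6 CPM against 110, 173 and 92.0 CPM. Gpnmb ran the other way in part, at 301, 583 and 922 CPM against 151, 446 and 262 CPM. In eligible cells outside the set no library exceeded 13.4 CPM for Igfbp2, Adh7, Mt3, Ces1h or Aldh3a1, and Gpnmb was at 16.4 to 52.7 CPM. The non-members are low by construction. In the GENCODE annotation of GRCm38 the 6 genes lie on chromosomes 1 (Igfbp2), 3 (Adh7), 6 (Gpnmb), 8 (Mt3 and Ces1h) and 11 (Aldh3a1).

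**Figure D2:**
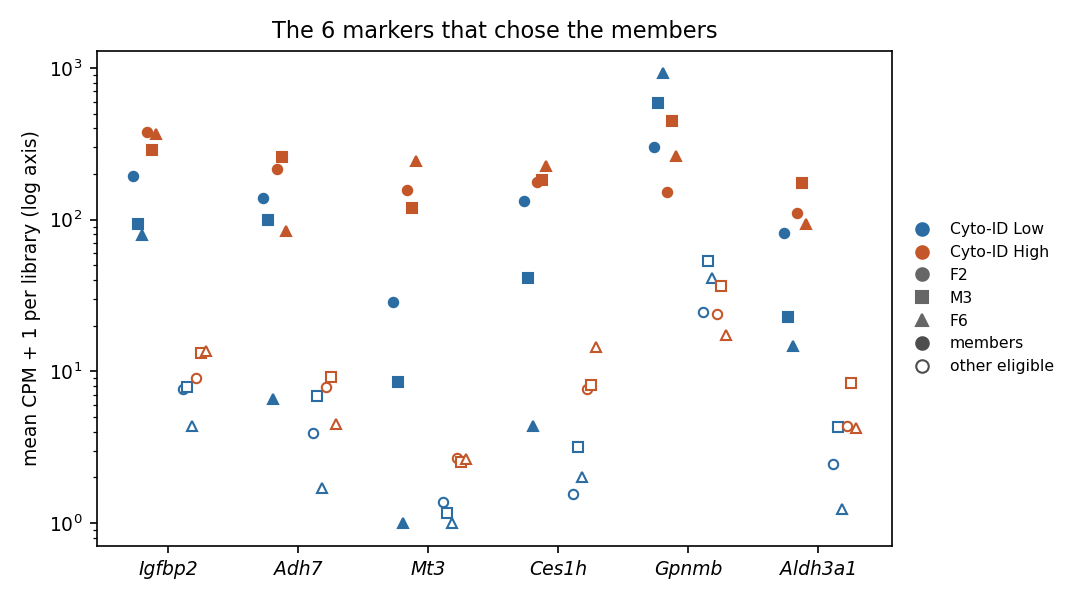
Mean CPM + 1 on a log axis for each of the 6 markers that define the set, in members (filled) and other eligible cells (open), with 1 point per library, colour for the Cyto-ID group and shape for the replicate label. Cyto-ID Low F6 members hold 922 CPM of Gpnmb but 0 CPM of Mt3 and 5.55 CPM of Adh7.

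Cells dropped as mitotic, which the score did not sort, also held Igfbp2 and Adh7. Igfbp2 was at 25.0, 11.2 and 5.15 CPM in the mitotic cells of Cyto-ID Low and at 167, 55.2 and 98.9 CPM in those of Cyto-ID High. Adh7 was at 14.1, 12.9 and 0 CPM against 123, 84.6 and 28.6 CPM there. In both genes the 3 Cyto-ID High libraries lay above the 3 Cyto-ID Low libraries, and the other score genes are not given for these cells. No test was made, and the share of all genes with such groups in these cells was not counted. Among cells with a Krt13 value of 3 or more, 7.28% reached the score cut and 2.77% carried 3 or more markers.

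The members were keratinocytes of basal type by the genes fixed for that check. Krt14, a basal keratin, was at 14304, 14040 and 7285 CPM in Cyto-ID Low members and 15931, 21231 and 7128 CPM in Cyto-ID High members. Krt5, its partner, ranged from 2862 to 5438 CPM, and Trp63, the basal transcription factor, from 37.4 to 161 CPM. Defining genes of non-epithelial, airway and liver cells were at or near 0. The 7 melanocyte genes, which matter here because Gpnmb also marks pigment cells, summed to at most 6.81 CPM in members, with 6 of the 7 at 0 in every library. The 10 immune genes, relevant since macrophages also express Gpnmb, summed to between 10.6 and 25.2 CPM with 7 of 10 at 0, among them Ptprc, Adgre1 and Csf1r. All 6 airway genes were at 0, and fibroblast (0 to 2.54 CPM), endothelial (0 to 3.61 CPM) and hepatocyte genes (0 to 1.29 CPM) were close to it. The 11 columnar or glandular genes were not at 0, with sums of 43.6 to 745 CPM in members, highest in Cyto-ID Low F6, and of 323 to 1909 CPM in other eligible cells. In members 6 of these 11 were at 0 in every library, Muc5ac and Tff1 among them, and most of the rest was Krt7. Their part in the results was not tested.

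Depth and RNA quality were compared within each library. Members and other eligible cells had median depths of 7366.5 and 6961.5 UMIs in Cyto-ID Low F2, of 10222 and 8665.5 in Cyto-ID High F2, where the gap was widest, and of 1744.5 and 1741 in Cyto-ID High F6. Over the 6 libraries the difference was 261 ± 669 UMIs (SD, n = 6; two-sided exact sign-flip permutation test, p = 0.47), and without Cyto-ID High F2 it was 1.9 UMIs. The number of detected genes differed by -3.08 ± 46.7 (SD, n = 6; two-sided exact sign-flip permutation test, p = 0.91), with members higher in 3 of 6 libraries. The mitochondrial share of UMIs was 2.79% ± 0.384 in members and 2.33% ± 0.308 in other eligible cells, higher in members in 6 of 6 libraries (SD, n = 6; two-sided exact sign-flip permutation test, p = 0.031, the smallest that 6 libraries allow). This call needs the 6 libraries to be independent. Averaged within the 3 replicate labels the difference was 0.454 ± 0.148 percentage points (SD, n = 3; two-sided exact sign-flip permutation test, p = 0.25, the smallest that 3 labels allow). Its part in the gene results was not tested.

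The main comparison set members against the other eligible cells of the same library and asked which genes outside the rule moved with the score. Of 11420 genes tested, 400 (3.50%) were higher and 707 (6.19%) were lower in members (limma with the library as a block, Benjamini-Hochberg adjusted p under 0.05). The 11 genes that the rule used were left out. Genes of conjugation, redox defence, metal binding and serine synthesis were among the higher ones, while simple-epithelial keratins and genes of superficial cells were among the lower ones. The count moved with single libraries. Without Cyto-ID Low F6 682 genes were higher and 1006 lower, and with members of 2 or more markers and without that library 884 were higher and 1311 lower. The total of 1107 was 557, 588, 642 and 615 without Cyto-ID Low F2, Cyto-ID High F2, Cyto-ID High M3 and Cyto-ID High F6.

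Krtdap, a secreted peptide of differentiating keratinocytes, had the largest rise among the genes named by the fixed rule. It was at 603, 76.1 and 21.3 CPM in Cyto-ID Low members and at 1708, 721 and 2250 CPM in Cyto-ID High members. Other eligible cells of the same libraries held 19.4, 10.0 and 5.96 CPM and 143, 221 and 725 CPM. Members were higher in 6 of 6 libraries, by 2.75 ± 0.33 on the log2(CPM + 1) scale (SE; limma adjusted p = 0.00016). In both kinds of cell every Cyto-ID High library lay above every Cyto-ID Low library. That difference passed in neither kind without the replicate label as a block (log2 difference 3.99 within members, limma adjusted p = 0.14). The share of all genes with such groups was not counted.

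Gstm1, a mu-class glutathione S-transferase, was at 299, 144 and 61.1 CPM in Cyto-ID Low members and at 397, 548 and 312 CPM in Cyto-ID High members. Other eligible cells held 29.0, 59.3 and 35.2 CPM and 41.9, 157 and 107 CPM, a log2 difference of 2.03 ± 0.27 (SE; limma adjusted p = 0.00042). Its gap to the other cells was widest in the F2 libraries and narrowest in Cyto-ID Low F6. Gsta1, of the alpha class, was at 55.2, 22.8 and 3.75 CPM and at 129, 110 and 176 CPM in members, against 3.81, 9.06 and 2.88 CPM and 14.3, 47.0 and 81.8 CPM in other eligible cells (log2 difference 1.78 ± 0.34, SE; limma adjusted p = 0.0049).

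Cbr3, a carbonyl reductase, was at 100, 61.6 and 34.6 CPM in Cyto-ID Low members and 110, 156 and 62.6 CPM in Cyto-ID High members, against 18.1, 31.0 and 16.4 CPM and 24.4, 57.8 and 29.2 CPM (log2 difference 1.55 ± 0.19, SE; limma adjusted p = 0.00020). It kept its call in 18 of 18 alternative fits, which no other higher gene named by the rule did. Ptgr1, a reductase of prostaglandins and reactive alkenals, rose by 1.54 ± 0.27 on the log2 scale (SE; limma adjusted p = 0.0024), from 31.7 to 138 CPM in other eligible cells to 37.0 to 379 CPM in members. Its smallest gap, 37.0 against 31.7 CPM, was in Cyto-ID Low F6.

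The other named higher genes were of mixed function. The water and glycerol channel Aqp3 rose by 1.92, the gelatinase Mmp2 by 2.18, the POU-domain factor Pou3f1 by 1.83 and the cornified envelope protein Sprr1b by 1.76 on the log2 scale. Cd5, known as a T-cell surface receptor, rose by 2.05, from 2.13 to 8.05 CPM in other eligible cells to 14.7 to 43.4 CPM in members. The T-cell gene Cd3e was at 0 in members of every library. Sox7 rose by 1.63 and Trnp1 by 1.604. With Gpnmb out of the score Mmp2, Cd5, Gsta1, Sox7 and Trnp1 lost their calls, and the log2 difference of Trnp1 was 0.57 (limma adjusted p = 0.64). Over 18 alternative fits the lowest log2 differences of Mmp2, Cd5, Gsta1 and Sox7 were 1.72, 1.32, 1.21 and 0.864. All 12 named higher genes were positive in 6 of 6 libraries, which the rule for naming required. For Gsta1 the gap in Cyto-ID Low F6, 3.75 against 2.88 CPM, lay near the floor. The 100 members of that library held 216162 UMIs in all, and Cldn3 and Duoxa2, named as lower, had the same 3.75 CPM in them.

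Members held less of what marks simple and superficial epithelium than other eligible cells did. Krt8, a keratin of simple epithelia, was at 3.05, 7.16 and 0 CPM in Cyto-ID Low members and at 5.62, 4.86 and 0.697 CPM in Cyto-ID High members. Other eligible cells held 78.9, 31.7 and 40.4 CPM and 101, 58.0 and 29.99 CPM, so that Krt8 fell by 3.83 on the log2 scale (SE 0.34; limma adjusted p = 1.1e-05). The tight junction gene Cldn3 fell by 3.82, the superficial genes Sprr2f and Duoxa2 by 3.59 and 3.51, the chemokine Cxcl3 by 3.49, Basp1 by 3.38, U90926 by 3.36, Sprr2d by 3.27, 2300002M23Rik by 3.42 and AA467197 by 3.22. All 10 were lower in members in 6 of 6 libraries, as the rule required.

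**Figure D3:**
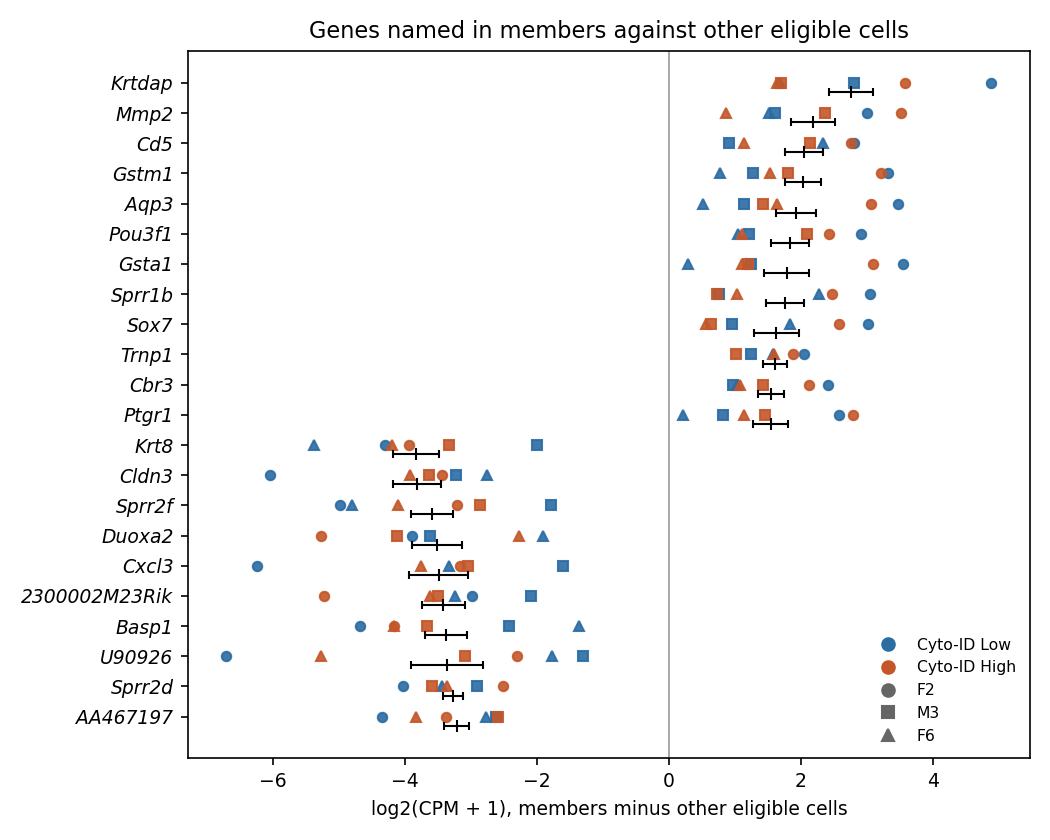
Difference in log2(CPM + 1) between members and other eligible cells for the 12 higher and 10 lower genes named by the rule, with 1 point per library (colour for the Cyto-ID group, shape for the replicate label) and, just below, the fitted difference with its SE in black. Points of the F2 libraries lie farthest from 0 for Gstm1, Aqp3 and Ptgr1, and Cyto-ID Low F6 lies nearest.

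Superficial markers differed between the 2 kinds of cell. The 6 superficial markers summed to between 94.5 and 813 CPM in members and to between 965 and 4893 CPM in other eligible cells, and 5 of the 5 tested were lower in members. All 4 tested simple or columnar keratins (Krt7, Krt8, Krt18 and Krt19) were lower too. Over all genes tested 6.19% were lower. Against another basal set, compared below, 0 of 4 tested superficial markers passed, with a positive median of 0.77. Of the 4 keratins, 2 (Krt7 and Krt18) were lower there. The part of these markers and keratins in the lower genes was not tested.

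Glutathione S-transferases, which join glutathione to reactive compounds, were the detoxifying family with most higher members. Of 22 tested, 8 were higher (Gsta2, Gstm1, Gsta1, Gstm2, Gstp1, Gsta3, Mgst2 and Mgst1) and 1 was lower (Gsto1), and 13 did not pass. Over all genes tested 3.50% were higher and 6.19% were lower. The family's median was 0.50, against -0.06 over all genes tested. Without Cyto-ID Low F6 the counts were 11 and 1. With cells thinned to 1000 UMIs or with no filter on low values 5 were higher, and without the library as a block 0 were. Gsta2 was at 39.0, 12.7 and 0 CPM in Cyto-ID Low members and at 59.8, 47.0 and 89.9 CPM in Cyto-ID High members, higher than in other eligible cells in 5 of 6 libraries (log2 difference 2.11 ± 0.48, SE; limma adjusted p = 0.012). Alpha-class genes are close copies of each other, so that the split of reads between Gsta1 and Gsta2 is uncertain.

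The membrane-bound transferases moved less. Mgst2 was at 207, 149 and 124 CPM and at 283, 199 and 195 CPM in members, against 125, 127 and 73.4 CPM and 128, 113 and 134 CPM in other eligible cells (log2 difference 0.74 ± 0.11, SE; limma adjusted p = 0.0011). Gsto1, an omega-class enzyme with reductase activity, was lower in members, at 1608 to 2637 CPM against 2758 to 6348 CPM, and it was at 12968 to 33296 CPM in cells with a Krt13 value of 3 or more. Gsta4, which conjugates the lipid aldehyde 4-hydroxynonenal, did not pass (log2 difference 0.28 ± 0.13, SE; limma adjusted p = 0.21).

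NRF2 targets outside the transferases also rose more often than they fell, while over all genes tested 3.50% were higher and 6.19% lower. Of 26 tested, 10 were higher (Nqo1, Gclm, Gss, Nfe2l2, Cat, Sod1, Tkt, Ftl1, Txn1 and Prdx6) and 2 were lower (Fth1 and Gsr), with a list median of 0.31. Without Cyto-ID Low F6 the counts were again 10 and 2, and without Cyto-ID Low F2 they were 6 and 2. With no filter on low values 5 were higher, with Gpnmb out of the score 6 were (not Nfe2l2 or Sod1), and without the library as a block 0 were. Gclm, the regulatory subunit of the enzyme that starts glutathione synthesis, was at 776, 917 and 592 CPM in Cyto-ID Low members and 601, 924 and 457 CPM in Cyto-ID High members, against 329, 632 and 273 CPM and 256, 644 and 259 CPM (log2 difference 0.95 ± 0.10, SE; limma adjusted p = 6.9e-05). Its catalytic partner Gclc did not pass, at 11.6 to 22.4 CPM in members and 10.2 to 18.6 CPM in other eligible cells (limma adjusted p = 0.63).

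Nqo1, a quinone reductase, was at 59.1, 25.2 and 42.8 CPM in Cyto-ID Low members and 79.9, 89.1 and 112 CPM in Cyto-ID High members, higher than in other eligible cells in 5 of 6 libraries (log2 difference 1.19 ± 0.20, SE; limma adjusted p = 0.0018). Nfe2l2 itself was at 244 to 451 CPM in members and 184 to 280 CPM in other eligible cells (log2 difference 0.73 ± 0.11, SE; limma adjusted p = 0.0012). Other targets in wide use as NRF2 readouts did not pass, among them Hmox1 (limma adjusted p = 0.15), Txnrd1 (0.94) and Srxn1 (0.91). Fth1, the heavy chain of ferritin, was lower in members, at 2002 to 6014 CPM against 3189 to 15993 CPM, while the light chain Ftl1 was higher, by 0.36 ± 0.07 on the log2 scale (SE; limma adjusted p = 0.0042).

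Metallothioneins rose as well, beside 3.50% higher and 6.19% lower over all genes tested. Of 9 tested genes of metal handling, 3 were higher (Mt4, Mt2 and Mt1) and 0 lower, and 3 were higher in every fit without 1 library. With no filter on low values or without the library as a block 0 were higher, and with a pseudocount of 0.1 CPM 2 were (Mt1 and Mt2). Mt3, a marker of the score, belongs to the same cluster on chromosome 8, so that this list is close to the rule. Mt2 was at 513, 239 and 169 CPM in Cyto-ID Low members and 1032, 394 and 1849 CPM in Cyto-ID High members, against 143, 199 and 114 CPM and 173, 156 and 633 CPM (log2 difference 1.40 ± 0.22, SE; limma adjusted p = 0.0015). Mt4, known from stratified epithelia, was at 170, 12.7 and 0 CPM and at 1708, 681 and 1722 CPM in members (log2 difference 2.88 ± 0.52, SE; limma adjusted p = 0.0031). All Cyto-ID High libraries were far above all Cyto-ID Low libraries in Mt4, in which Cyto-ID Low F6 members had 0 CPM. Within members that difference did not pass in limma without the replicate label as a block (adjusted p = 0.14) and passed with it (0.0076). The share of all genes with such groups was not counted. The zinc exporter Slc30a1, another gene under MTF1, did not pass (limma adjusted p = 0.78).

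The sequences upstream of these genes are shown because the 2 gene groups are known for a binding motif each. RefSeq promoters of build GRCm38.p6 (300 bases, from 250 before to 50 after a start site) were searched on both strands for the antioxidant response core TGACNNNGC and the metal response core TGCACNC or TGCGCNC. The former can overlap the AP-1 motif TGACTCA. Capitals mark the matched letters, which for reverse-strand matches are the reverse complement, and each run reads 5′ to 3′ in the gene's direction and ends before the gene's start.
Mt1 (metal core, chr8:94179046-94179081, plus strand): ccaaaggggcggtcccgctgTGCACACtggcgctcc
Mt2 (metal core, 3 matches, chr8:94172375-94172594, plus strand): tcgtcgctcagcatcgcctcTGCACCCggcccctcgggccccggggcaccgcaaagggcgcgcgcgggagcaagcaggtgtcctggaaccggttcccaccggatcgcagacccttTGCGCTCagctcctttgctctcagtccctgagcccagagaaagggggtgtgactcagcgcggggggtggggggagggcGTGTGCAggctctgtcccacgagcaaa
Mt4 (metal core, chr8:94137093-94137139, plus strand): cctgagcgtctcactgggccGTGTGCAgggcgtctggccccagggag
Gsta3 (antioxidant core, chr1:21240444-21240492, plus strand): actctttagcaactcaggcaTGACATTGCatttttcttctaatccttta
Gclm (antioxidant core, chr3:122245403-122245451, plus strand): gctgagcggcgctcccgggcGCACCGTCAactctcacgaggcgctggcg
Nfe2l2 (antioxidant core, chr2:75704875-75704913, minus strand): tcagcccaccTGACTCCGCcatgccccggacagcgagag
Sod1 (antioxidant core, chr16:90220686-90220734, plus strand): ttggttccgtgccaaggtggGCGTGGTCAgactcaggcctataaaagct

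These matches are a description and no evidence of binding, and only genes with a match are printed. The antioxidant core was found for 2 of the 8 higher transferases and 3 of the 9 higher NRF2 targets with a promoter. The Mt2 run also holds a match of that core, not marked, that overlaps the AP-1 motif, and the Gclm run also holds an unmarked match of the metal core. The antioxidant core occurred in 12.4% of the 32851 promoters of the table and the metal core in 25.7%. Counted by gene, as in the other counts here, they occurred in 14.0% and 28.2% of 27025 genes. Of the 306 higher genes with a promoter, 59 (19.3%) held the antioxidant core, against 1532 of 9006 tested genes (17.0%) and 83 of 534 lower genes (15.5%). The metal core was in 40.8% of higher, 41.1% of tested and 36.7% of lower genes. It was found for 3 of the 5 score genes with a promoter (Igfbp2, Adh7 and Mt3), and Aldh3a1 was not matched. The shares in higher genes were near those of all tested genes for both motifs.

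The remaining enzyme lists moved in part, where 3.50% of all genes tested were higher and 6.19% lower. Of 11 tested genes of glucuronidation, sulfation and export, 3 were higher (Ugt1a7c, Ugdh and Abcc3) and 0 lower, with a median of 0.59. Only 1 was higher without Cyto-ID Low F2, without Cyto-ID High M3 or without Cyto-ID High F6. Ugdh, which makes the glucuronic acid donor, was at 43.7 to 165 CPM in members and 33.6 to 77.6 CPM in other eligible cells (log2 difference 0.80 ± 0.12, SE; limma adjusted p = 0.00091). Ces2g was the 1 higher gene of 5 esterases and epoxide hydrolases, at 79.2, 45.5 and 47.8 CPM and at 114, 98.5 and 70.5 CPM in members (log2 difference 1.25 ± 0.16, SE; limma adjusted p = 0.00025).

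Alcohol, aldehyde and carbonyl enzymes outside the score did not rise as a group. Of 19 tested, 1 was higher (Cbr3) and 4 were lower (Aldh1a3, Rdh10, Akr1c13 and Akr1b8), with a median of -0.22. Aldh1a3, which makes retinoic acid, was at 6.96 to 27.4 CPM in members and 60.0 to 291 CPM in other eligible cells (log2 difference -2.88 ± 0.23, SE; limma adjusted p = 4.4e-06). It was at 276 to 1833 CPM in cells with a Krt13 value of 3 or more. Of 12 cytochrome P450 genes, flavin monooxygenases and partners, Cyb5a was higher and Fmo2 lower, near the share over all genes (3.50% and 6.19%). Neither passed without Cyto-ID Low F2, Cyto-ID High F2 or Cyto-ID High F6, and without Cyto-ID Low F6 3 were higher and 2 lower.

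Genes of serine and amino acid synthesis under ATF4 moved with the set in part, against 3.50% higher and 6.19% lower over all genes tested. Of 21 tested, 6 were higher (Phgdh, Psat1, Psph, Atf5, Shmt2 and Cebpb) and 1 lower (Nupr1), with a median of 0.11. The count of higher genes was 7 without Cyto-ID Low F6 and 2 without either F2 library. Phgdh, the first enzyme of serine synthesis, was at 123, 92.4 and 40.3 CPM in Cyto-ID Low members and 183, 214 and 111 CPM in Cyto-ID High members, against 26.7, 58.8 and 36.1 CPM and 35.2, 113 and 50.7 CPM (log2 difference 1.27 ± 0.24, SE; limma adjusted p = 0.0041). Psat1 and Psph, the next enzymes of the path, rose by 1.18 and 0.83 on the log2 scale.

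**Figure D4:**
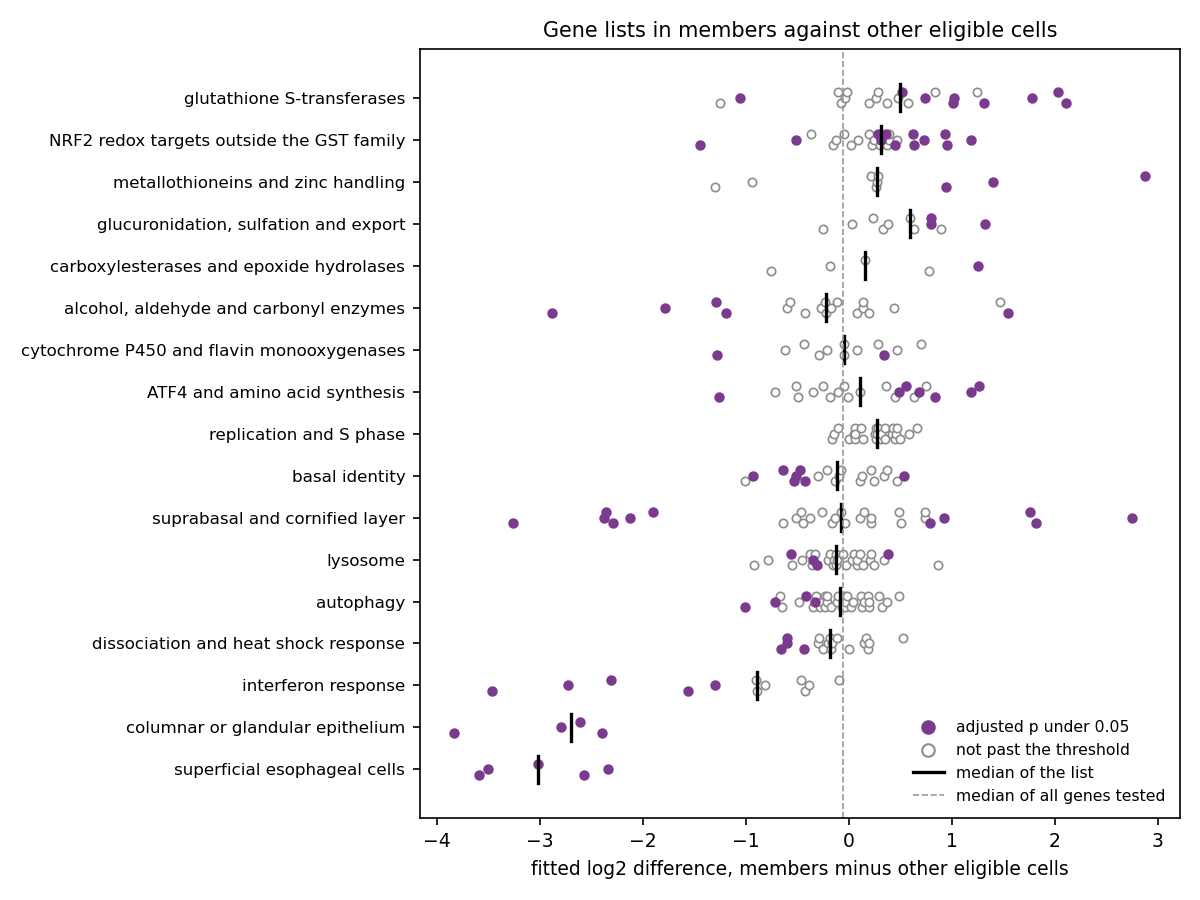
Fitted log2 difference between members and other eligible cells for each tested gene of 17 lists, with called genes filled, a black bar at the median of each list and a dashed line at the median of all genes tested (-0.06). The medians of transferases (0.50) and glucuronidation genes (0.59) lie to the right, and those of interferon, columnar and superficial genes to the left.

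Lists of basal and differentiated layers split within themselves, beside shares of 3.50% higher and 6.19% lower over all genes tested. Of 20 basal genes, Krt15 was higher and 6 were lower, among them the integrin subunits Itga2, Itga3 and Itgb1, which anchor basal cells to the matrix. Krt5, Krt14, Trp63, Itga6, Itgb4 and Col17a1 did not pass, but without Cyto-ID Low F6 Krt5, Krt14 and Trp63 were higher as well. The number of lower calls was 0 without Cyto-ID Low F2, 1 without Cyto-ID High F2 or Cyto-ID High F6 and 3 without Cyto-ID High M3. Of 29 suprabasal and cornified-layer genes, 5 were higher (Krtdap, Tgm3, Sprr1b, Sbsn and Dmkn) and 6 were lower (Sprr2d, Mal, Ecm1, Cnfn, Sprr1a and Calml3). Without Cyto-ID Low F6 these counts were 8 and 7, and without Cyto-ID Low F2 they were 3 and 5. Tgm3, an envelope-linking transglutaminase, was at 20.4, 19.8 and 7.31 CPM and at 71.2, 49.3 and 53.6 CPM in members, against 3.05 to 16.2 CPM in other eligible cells (log2 difference 1.82 ± 0.37, SE; limma adjusted p = 0.0066).

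Among growth and stress lists the calls were lower in members, against 6.19% lower over all genes. None of 27 S-phase genes passed, with a median of 0.28 and 24 positive values, and with limma 7 were higher among members of 2 or more markers without Cyto-ID Low F6. Cdkn2a, Cdkn2b and Ccnd1 were lower of 10 cell-cycle regulators, Cdkn2a at 0 to 4.01 CPM in members against 3.43 to 37.0 CPM. Of 18 dissociation and heat shock genes 4 were lower (Fosb, Atf3, Fos and Jund), a number that was 0 without Cyto-ID High M3 and 1 without Cyto-ID High F6. Of 12 interferon genes 5 were lower and 0 higher, with a median of -0.90. Among regulators, 2 of 25 were higher, namely Nfe2l2 and the homeobox factor Pitx1, against 3.50% of all genes. Without Cyto-ID Low F6 5 were higher (Rarg, Klf4 and Klf5 in addition) and 1 lower.

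Genes of vesicles and lysosomes, the compartments that Cyto-ID and Gpnmb relate to, gave few calls, as did all genes tested (3.50% higher and 6.19% lower). Of 36 autophagy genes 0 were higher and 4 lower (Sqstm1, Bnip3, Bnip3l and Gabarap), with a median of -0.09. Without Cyto-ID Low F2 or without Cyto-ID High F6 2 were lower. Of 31 lysosomal genes, the protease Ctsc was higher and Ctsl, Cd63 and Ctsh were lower, and the lower calls numbered 0 without Cyto-ID Low F2, Cyto-ID High F2, Cyto-ID High M3 or Cyto-ID High F6. With Gpnmb out of the score 6 lysosomal genes were lower, and among members of 2 or more markers without Cyto-ID Low F6 8 lysosomal and 8 autophagy genes were. Among the relatives of Igfbp2, Igfbp4 was higher, at 11.4 to 61.4 CPM in members and 3.53 to 46.5 CPM in other eligible cells (log2 difference 1.00 ± 0.23, SE; limma adjusted p = 0.013), and Igfbp3 and Igf2r were lower. Igfbp4 lost its call without Cyto-ID Low F2 or Cyto-ID High M3, and none of the 3 passed with Gpnmb out of the score.

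The named genes were also read in poorly and well marked members apart. These subsets are parts of the set in which the genes were chosen for their difference, so the directions are largely fixed by that choice. In the 5 libraries with at least 20 such cells (all but Cyto-ID Low F2), members with 1 marker were above other eligible cells in 12 of the 12 named higher genes, with a median log2 difference of 1.10, and members with 2 or more markers in 12 of 12, with a median of 2.09 in the 5 libraries other than Cyto-ID Low F6. Members led by Gpnmb had a median of 1.29 over 6 libraries and members led by another marker one of 2.10 over the 5 without Cyto-ID Low F6, so the medians are not over the same libraries. All 10 named lower genes were lower in each of these subsets. The subsets were made after the data were seen and carry no test.

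A second comparison used another basal set of the same organoids, the cells at or above the 85th percentile for Tmem176a, Tmem176b and Btn1a1. The sets shared 160 cells, 8.21% of each, which were left out of both. Of 11116 genes, 90 (0.810%) were higher and 102 (0.918%) were lower in members (limma with the library as a block, Benjamini-Hochberg adjusted p under 0.05). On plain CPM the split was 76 higher and 150 lower. Cyto-ID High F6 had only 31 cells of the other set, and without it 202 genes were higher and 276 lower, while 40, 38 and 17 genes passed in all without Cyto-ID Low F2, Cyto-ID High F2 or Cyto-ID High M3.

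Gsta1 and Krtdap were higher than in that set too. Gsta1 was at 61.0, 36.2 and 5.13 CPM and at 130, 118 and 177 CPM in members, and at 0.614, 2.60 and 0 CPM and 3.77, 4.68 and 0 CPM in Tmem176 cells (log2 difference 4.74 ± 0.65, SE; limma adjusted p = 0.0097). Krtdap was at 4.07 to 51.2 CPM in Tmem176 cells and at 24.8 to 2260 CPM in members (log2 difference 4.90 ± 0.48, SE; limma adjusted p = 0.0037), and kept its call in 11 of 11 alternative fits. Chit1, a chitinase, was at 53.6 to 193 CPM in members and 0 to 24.0 CPM in Tmem176 cells, and Sprr1b and Plbd1 rose by 3.85 and 3.65 on the log2 scale. The iron oxidase Cp fell by 4.17, the iron-scavenging lipocalin Lcn2 by 4.00, the matrix-linked Ccn2 by 3.57, Plekhb1 by 3.47 and the adhesion protein Alcam by 3.39. Each named gene except Krtdap lost its call in 3 to 6 of 11 alternative fits.

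Against Tmem176 cells 0.810% of all genes tested were higher and 0.918% lower. By list, 5 of 22 transferases were higher there (Gsta1, Gsta2, Gstm1, Gsta4 and Gsto1) and 0 lower, with a median of 1.04 against 0.13 over all genes tested. Gsto1 thus went in opposite directions in the 2 comparisons, lower than in other eligible cells and higher than in Tmem176 cells (442.7 to 1594 CPM). Of 26 NRF2 targets 5 were higher (Nqo1, Gclm, Nfe2l2, Blvrb and Txn1) and 0 lower, and of 28 suprabasal genes 7 were higher and 0 lower (2 or 3 without Cyto-ID High M3 or either F2 library). The transferase count was 1 without Cyto-ID High M3, 2 without either F2 library and 8 without Cyto-ID High F6, and the NRF2 count was 2 without Cyto-ID High M3 or either F2 library and 8 without Cyto-ID Low F6. The 4 tested superficial markers did not pass in this comparison, with positive differences in all 4 and a median of 0.77. Krt7 and Krt18 were lower in members (log2 differences -2.43 and -2.32).

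One more basal set, the cells highest in Tnc, Wfdc18 and U90926, shared 48 cells with the members, 2.46% of each. Each of these other sets holds 15.0% of all eligible cells. Tmem176 cells took 78 of the 211 members of Cyto-ID Low M3 (37.0%) and 3 of the 518 members of Cyto-ID High F6 (0.579%), beside 31.0% and 1.23% of all eligible cells of those libraries.

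**Figure D5:**
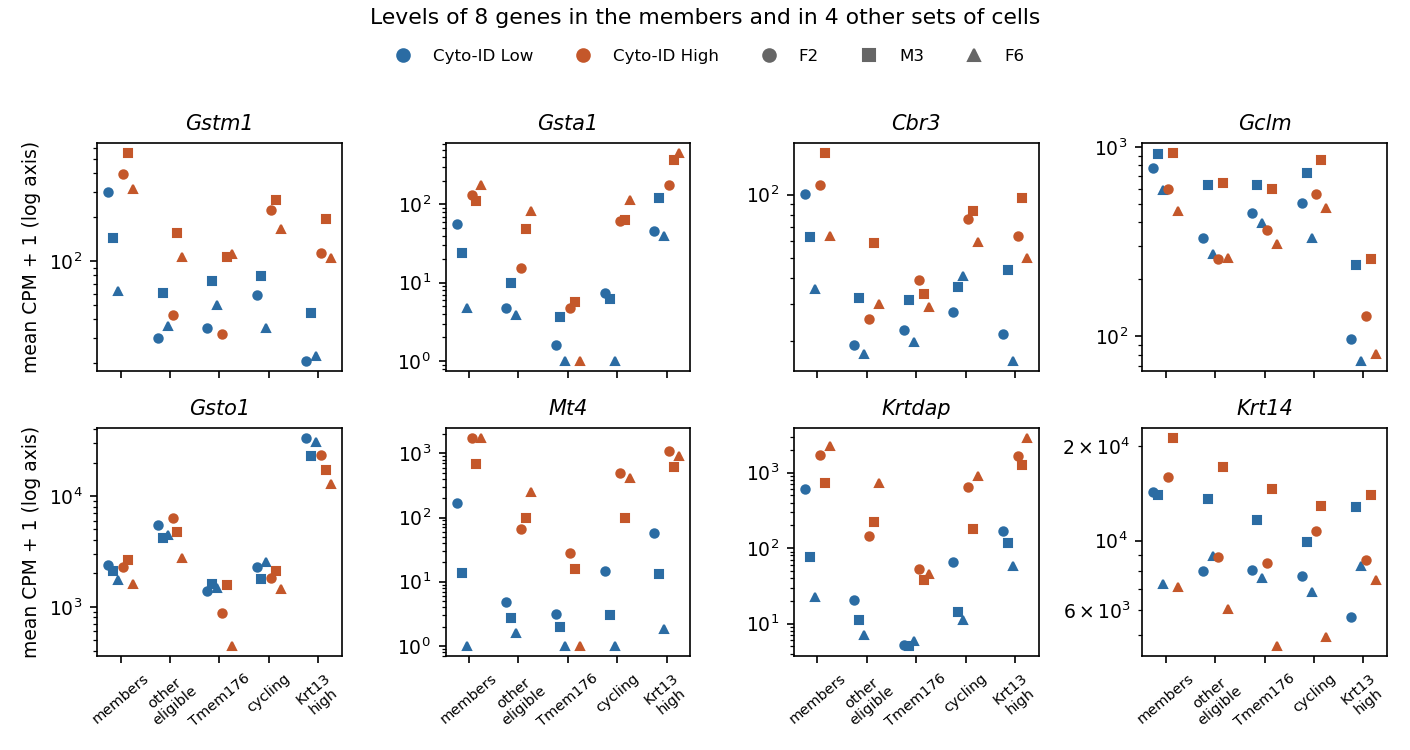
Mean CPM + 1 on log axes for 8 genes in members, other eligible cells, Tmem176 cells outside the set, cells dropped as mitotic and cells with a Krt13 value of 3 or more, with 1 point per library. Gstm1 and Cbr3 are highest in members of each Cyto-ID Low library except that Cbr3 in Cyto-ID Low F6 is higher in mitotic cells, while Gsto1 and, in most libraries, Gsta1 are highest in Krt13-high cells.

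Within members, Cyto-ID High and Cyto-ID Low were then compared with 3 libraries each. Of 11384 genes, 0 (0%) passed in limma, and 1086 had an unadjusted p under 0.05. Blocking on the replicate label gave 62 genes (28 higher and 34 lower in Cyto-ID High). The same comparison within other eligible cells gave 1 of 11631 genes (0.00860%) without and 16 with the replicate label as a block, and a test of the difference between both effects gave 0 of 11420 (0%), with 775 at an unadjusted p under 0.05. The count within members was 20 without Cyto-ID Low F2 and 30 without Cyto-ID High M3, and when the score cut was set within each library, which gives every library 15.0% members, 325 genes passed (119 higher and 206 lower). That the Cyto-ID Low members were chosen more by Gpnmb, in 61.1% ± 27.6 against 20.1% ± 10.3 (SD, n = 3), moves with this comparison, and its part was not tested.

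The genes with the smallest p in each direction did not pass without the block. Their groups did not overlap, which choosing by smallest p largely fixes. The share of all genes with such groups was not counted. With the replicate block in limma all 6 passed in the same libraries, with adjusted p from 0.0076 to 0.022. Nlrp10, an inflammasome-related gene, was at 49.3, 36.4 and 78.2 CPM in Cyto-ID Low members and at 5.49, 5.67 and 2.63 CPM in Cyto-ID High members (log2 difference -3.13 ± 0.45, SE; limma adjusted p = 0.080). The serine protease Prss12 was at 63.6, 75.7 and 117 CPM against 15.0, 16.6 and 11.6 CPM (limma adjusted p = 0.080) and the adhesion scaffold Nedd9 at 62.5, 103 and 97.6 CPM against 21.8, 21.1 and 15.2 CPM (limma adjusted p = 0.14). In the other direction, Mt4 had a log2 difference of 6.76 ± 1.21 (SE; limma adjusted p = 0.14). The calmodulin-like Calm4 was at 3.00, 0 and 0 CPM against 31.8, 14.7 and 16.9 CPM, and the nucleotide kinase Nme1 at 174, 178 and 153 CPM against 329, 374 and 315 CPM (limma adjusted p = 0.14 for both). Other eligible cells also differed in Mt4, at 3.87, 1.73 and 0.580 CPM in Cyto-ID Low against 65.0, 97.3 and 250 CPM in Cyto-ID High. Mt4 was the 1 gene that passed there without the block. Calm4 was at 0.833, 0.700 and 0 CPM against 6.41, 17.5 and 12.9 CPM in those cells.

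Lists within members are given as values, since no gene of them passed without the block. The fitted High minus Low difference was positive for 19 of 23 transferases (median 0.65), 24 of 29 suprabasal genes (0.94) and 26 of 27 S-phase genes (0.54), against a median of 0.03 over all genes. It was positive for 3 of 20 basal genes (median -0.49), 7 of 36 autophagy genes (-0.31) and 5 of 30 lysosomal genes (-0.46). In other eligible cells the same 6 medians were 0.27, 0.53, 0.43, -0.29, -0.05 and -0.13, of the same sign in each case. On plain CPM the median over all genes within members was -0.15, so that values near 0 depend on the scaling.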

How the data were processed

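Cells of 6 organoid libraries were profiled by 10x 3′ single-cell RNA-seq. The authors' deposited values are natural log values, ln(1 + UMIs scaled to 10000 per cell), and going back through that formula gave whole UMI counts for 100.0% of values (tolerance 1e-06). Cell Ranger 6.0.0, Seurat 4 and the build GRCm38 are named in the submitters' processing notes. The annotation, the cell filter and the handling of reads shared by close paralogs (Gsta1 and Gsta2, Gstm1 and Gstm2, the metallothioneins) are not given in the sources used here.

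Members were chosen by the rule in the report, and the members and gene lists were chosen with earlier results of these data known. For each class and library, CPM was averaged over cells, scaled by TMM factors (genes of mean 50 CPM or more) and tested as log2(CPM + 1), which understates the change of low genes. Genes had to reach 1 CPM in as many class means as 1 class has libraries. limma 3.58.1 (R 4.3.3) was used with trend and Benjamini-Hochberg adjustment at 0.05, the library as a block between classes, and no block between Cyto-ID groups. Printed levels are unscaled mean CPM. Named genes were the 12 with the largest rise and 10 with the largest fall among called genes of 1 sign in 6 libraries and at least 20 CPM in the higher class (5 and 5 against Tmem176 cells). With no call within members, the 3 of smallest p in each direction were named (10 CPM or more). Other genes are named as members of a list, and 1 list member is not reported here.

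Replicate labels recur in both groups. In other eligible cells the deviations of same-labelled libraries from their group means correlated at 0.678, 0.615 and 0.159 over 8991 genes, and in members at 0.233, 0.188 and 0.063 over 8905 genes. Both kinds of cell come from the same libraries, so the labels were taken to pair the libraries of both groups. The main Cyto-ID fits were planned without a block and left that pairing out. Blocked counts are printed beside the main ones. Comparisons between classes treat the 6 libraries as separate samples, so their p-values are too small to the extent that libraries of 1 label deviate together. Doublets were not called, and leaving out the 5% deepest cells was an alternative. The fits were also run on simulated counts with noise drawn independently for each class mean. That setting held no shared effect of a library or label, so it says nothing about such effects. Python 3.11.15, pandas 2.3.3, scipy 1.17.1 and matplotlib 3.10.9 were used for the rest.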

Additional observations from a re-analysis of the deposited data

How the results depend on the processing

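The difference in member share between Cyto-ID High and Cyto-ID Low was 16.1 percentage points. It lay between 12.2 and 19.9 points under other scores, other cuts pooled over libraries or at 2 or more markers. A cut within each library sets every share at 15.0% and holds no such difference. For cells with 3 or more markers it was 7.38 points, and as a share of all kept cells 8.55 points. When 1 library was left out it lay between 13.3 and 17.9 points. The score on thinned cells could not be used, since its 85th percentile was 0.

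Of members against other eligible cells, 1107 genes passed. The count was 512 without the filter on low values, 418 with cells thinned to 1000 UMIs, 683 at the 90th percentile, 710 with a score without Gpnmb, 2195 with members of 2 or more markers and Cyto-ID Low F6 left out, and 194 without the library as a block. Leaving out 1 library gave 557 to 1688. Against Tmem176 cells 192 genes passed, and 40 did with a pseudocount of 0.1 CPM, 28 without the filter and 324 with 2 or more markers, with 17 to 478 when 1 library was left out.

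Within members, 0 genes passed between Cyto-ID groups, and the count was 2 on plain CPM, 325 with the 85th percentile set within each library and 3 without Mt3 and Ces1h in the score, with 0 to 30 when 1 library was left out. The replicate label as a block gave 62 genes (28 higher and 34 lower). In other eligible cells 1 gene passed, and 0 did without the filter, 2 with thinned cells, 3 on plain CPM and 16 with the replicate block, with 0 to 5 when 1 library was left out. For the difference between both effects, 0 genes passed, 10 with 2 or more markers and 1 on plain CPM, with 0 to 47 when 1 library was left out.

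The mitochondrial difference, 0.454 with p = 0.25 when averaged within replicate labels, was 0.410 to 0.480 percentage points without 1 library, where the smallest exact permutation p for 5 libraries is 0.0625. The difference in detected genes ran from -19.1 to 8.30, and its sign was reversed without Cyto-ID High M3 (8.30) or Cyto-ID Low F6 (3.40). Of 396 refits of named genes against other eligible cells, 369 kept the call, 27 lost it and 0 reversed. Against Tmem176 cells 66 of 110 kept it and 44 lost it. Alternatives on Gpnmb, on 2 or more markers, on the 90th percentile for the share, on plain CPM outside the comparisons with other eligible cells and between Cyto-ID groups of members, and on single libraries for shares and quality were chosen after seeing the data. The cause of these changes was not tested. Plain CPM moved the median over all genes from 0.03 to -0.15 within members.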
